A study of Homo sapiens with 10 samples.

Results

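The genes coding for proteins of the large (60S) ribosomal subunit were followed through a genome-wide CRISPR knockout screen in 22Rv1 cells, a human prostate cancer line. Members were the genes named RPL with a number (with an optional A, X or L and further digits) together with RPLP0, RPLP1 and RPLP2. This rule took 52 of the 18686 gene symbols in the count table. Their knockout was read through 149 of the 55849 listed sgRNAs, with 3 sgRNAs for 46 genes, 2 for 5 genes and 1 for 1 gene. The symbols RPL36AL, RPL17-C18orf32 and RPL36A-HNRNPH2 do not match the rule and were left out.

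The screen compared parental 22Rv1 cells with 22Rv1 cells overexpressing NMYC, the protein of MYCN, and the series design asks which knockouts harm the overexpressing cells in particular. Both arms carried the same lentiviral library (infection at a multiplicity of 0.3, puromycin selection). Each arm gave 1 library at T0, after selection, and libraries of 2 duplicate cultures at T6 and at T12, 10 libraries in 6 groups. The labels give a coverage of 300-fold, passage every 72 h and 12 generations. What drives NMYC, whether either line is a single clone, and the unit behind T6 and T12 are not stated in the sources at hand.

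The large subunit holds the peptidyl transferase centre, where peptide bonds are made, and the tunnel through which the new chain leaves. Most of its proteins are needed by every dividing cell, so in knockout screens sgRNAs against them are usually lost from the culture. MYC family proteins drive transcription of ribosomal protein genes, and free RPL5 and RPL11, bound to 5S rRNA, bind and restrain MDM2. Some members are paralogs of tissue-restricted expression, such as RPL10L in testis and RPL3L in muscle.

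The libraries held between 8783512 and 18398571 counts, and the median sgRNA between 50 and 187. Both cultures of an arm were plated after a single infection, so p-values measure only spread that arose later. That spread holds culture, library preparation and sequencing together, and the T0 library of each arm has no replicate. Agreement between replicate cultures was loose for member sgRNAs and for all sgRNAs. Over 135 sgRNAs, which share libraries and target genes, the Spearman correlation of parental cultures was 0.468 at T6 and 0.322 at T12, and that of NMYC cultures 0.373 and 0.327. Over all kept sgRNAs the same correlations were 0.421 and 0.329 in parental and 0.480 and 0.397 in NMYC cells. The T0 libraries of the arms correlated at 0.296 over the member sgRNAs and at 0.324 over all.

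Member sgRNAs were absent from the T12 libraries more often than the sgRNAs of the table as a whole. In parental cells 7.38% of the 149 had 0 counts at T0, 6.71% and 12.8% at T6, then 18.1% and 14.1% at T12. Over all listed sgRNAs these shares were 6.17%, 3.21%, 7.68%, 9.15% and 5.45%. The exact (Clopper-Pearson) 95% interval was 12.3% to 25.3% for the parental T12 replicate 1 share and 8.94% to 20.7% for replicate 2, and such intervals cover counting error only. In NMYC cells 6.04% had 0 counts at T0, 7.38% and 13.4% at T6, then 19.5% and 10.7% at T12, against 2.98%, 3.14%, 5.87%, 8.93% and 6.85% of all sgRNAs. The interval was 13.4% to 26.7% for NMYC T12 replicate 1 and 6.26% to 16.9% for replicate 2, and the last interval includes the share of all sgRNAs. The member share was above that of all sgRNAs in each of the 10 libraries, T0 included. Olfactory receptor sgRNAs, whose targets are not expected to be expressed in prostate cells, lay between 2.31% and 8.06%.

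The level of the member sgRNAs within a library needs no T0 baseline. The median member sgRNA stood at percentile 56.9 of the kept sgRNAs in the parental T0 library, at 46.8 and 56.7 at T6 and at 45.4 and 50.5 at T12. In NMYC cells it stood at percentile 53.7 at T0, 45.0 and 43.9 at T6, then 44.6 and 39.6 at T12. All 4 later NMYC libraries were below both T0 libraries, and parental T6 replicate 2 was level with its T0 library. The median olfactory receptor sgRNA stayed between percentiles 54.0 and 56.7 in all 10 libraries. Other sets moved in NMYC cells. The median small-subunit sgRNA went from percentile 49.8 at T0 to 42.2 and 42.6 at T12. For sgRNAs against 60S assembly genes it went from 47.8 to 39.8 and 45.2. Non-targeting controls rose from 47.1 to 51.8 and 55.2. A fall in NMYC cells was thus not particular to the members.

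**Figure D1:**
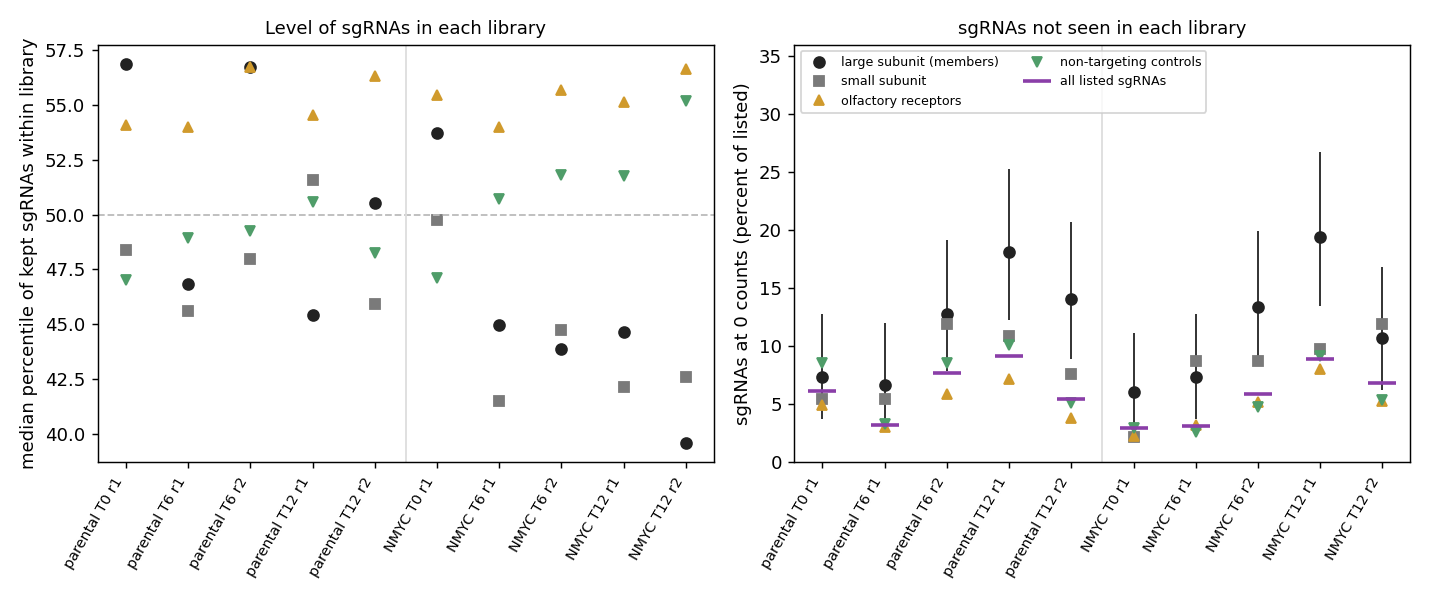
Left, median percentile (no unit) of kept sgRNAs within each library for large-subunit, small-subunit, olfactory receptor and non-targeting sgRNAs, with a dashed line at 50. Right, sgRNAs at 0 counts in percent of those listed, with 95% Clopper-Pearson intervals for the large subunit and a bar for all listed sgRNAs; the large-subunit points lie between 6.04% and 19.5%, highest at NMYC T12 replicate 1.

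A test of each gene needs sgRNAs with enough counts. A mean of at least 20 counts over the libraries was required, which 135 of the 149 member sgRNAs met. It left out 9.40% of the member sgRNAs (95% interval 5.23% to 15.3%), 7.61% of the small-subunit sgRNAs, 5.03% of all sgRNAs and 3.98% of the olfactory receptor sgRNAs. Since an sgRNA lost early has a low mean, this filter can take away sgRNAs against needed genes. Of the 14 left out, 6 were at 0 in all 4 T12 libraries, a share not computed for all left-out sgRNAs. Among these 6, those of RPL13 and RPL24 had 0 counts in both T0 libraries and that of RPL37A had 1 and 2. Such sgRNAs were scarce from the start and show no loss. Those of RPL7, RPL36 and RPL39L had 33, 73 and 21 counts at parental T0 and 0, 5 and 0 at NMYC T0. All 3 sgRNAs were kept for 36 genes, 2 for 11 genes and 1 for 5 genes. RPL13, RPL17, RPL36A, RPL39 and RPL39L, with 1 kept sgRNA each, have no gene test, so the results below cover 47 of the 52 members.

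In parental cells, members lay on both sides of the median gene between T0 and T12. Gene levels are the summed CPM of the kept sgRNAs, that is counts scaled to library size by edgeR's TMM factors, and log2 values are relative to the median gene. The median member was at -0.33, with 25 of 47 below the median gene, against a median of 0 and 50% for all genes. The single T12 libraries had member medians of -0.27 and -0.11, the last being the value without parental T12 replicate 1. The 2-fold rules here and below use the change in each T12 library relative to its median gene, not the change in CPM itself. By that measure a level at least 2-fold below T0 in both T12 libraries was found for 11 of the 47 members, 23.4%, against 14.3% of all tested genes: RPL6, RPL7, RPL9, RPL10, RPL19, RPL23, RPL29, RPL30, RPL31, RPL34 and RPL41. A level at least 2-fold above T0 in both, by the same measure, was found for 8, 17%, against 19.6% of all genes: RPL22, RPL22L1, RPL26, RPL28, RPL32, RPL36, RPL37A and RPLP2. All kept sgRNAs of a gene lay below the median sgRNA for 10 of the 47 members (21.3%, against 14.8% of all genes), among them RPL8, RPL12, RPL21, RPL23, RPL24, RPL30, RPL31, RPL34 and RPL38, and above it for 6 (12.8%, against 14.2%).

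No member passed the parental test. Rank aggregation over edgeR p-values gave 0 of 47 members lower and 0 higher after Benjamini-Hochberg adjustment over 18197 genes, where 0% of all genes passed in either direction. At an unadjusted p under 0.05, 6 members were lower (12.8%, against 5.11% of all genes) and 3 higher (6.38%, against 4.85%). The same score on DESeq2 p-values also called 0 members, and its share of all genes is not given here or below. Of the 135 member sgRNAs taken singly, edgeR called 0 lower, against 0.0226% of all sgRNAs, and 0 higher, against 0%. Without adjustment (p under 0.05) it had 10 lower (7.41%, against 5.92% of all sgRNAs) and 10 higher (7.41%, against 5.31%). DESeq2 called 8 lower and 16 higher after adjustment (5.93% and 11.9%, against 4.85% and 10.4% of all sgRNAs).

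RPL34 had the smallest p for depletion, although other members, RPL23 and RPL31 among them, had lower log2 values. The summed level of RPL34 was 284 CPM in the parental T0 library. It was 49.7 and 46.4 in the T6 cultures and 74.3 and 44.4 at T12, a mean of 59.4 ± 21.1 (SD, n = 2). All 4 later libraries were below T0, at a T12 log2 value of -2.16 (rank aggregation on edgeR p-values, adjusted p = 0.945). The 3 sgRNAs, numbered in table order here and below, differed in course. The first went from 786 counts at T0 to 134 and 53 at T12, and the second from 1347 to 1016 and 662. The third had 1665 counts at parental T0 and 0 in each of the other 9 libraries, NMYC T0 included.

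RPL23, a protein of the subunit interface that can also bind MDM2, was at 228 CPM at T0, 47.1 and 66.1 at T6, then 47.4 and 12.7 at T12 (T12 mean 30.1 ± 24.5, SD, n = 2). Its log2 value was -2.82 (edgeR rank aggregation, adjusted p = 0.977). Both kept sgRNAs were lower in both T12 libraries than at T0, the one from 314 counts to 1 and 1 and the other from 2738 to 733 and 204. The remaining RPL23 sgRNA, left out for low counts, had at most 23 counts in any library.

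RPL31, at the rim of the exit tunnel, was at 277 CPM at T0, 50.5 and 314 at T6, then 76.5 and 26.5 at T12, so 1 of the T6 cultures was above T0 and both T12 cultures below (log2 -2.33). RPL30 was at 128 CPM at T0, 44.6 and 54.8 at T6, then 26.1 and 48.4 at T12 (log2 -1.69), with all later libraries below T0. RPL7L1, a nucleolar paralog of RPL7 that acts in subunit assembly, was at 104 CPM at T0 and at 0.775 and 56.4 at T12 (log2 -1.77). The RPL7L1 replicates stood far apart, and 1 of its sgRNAs went from 248 counts at T0 to 0 in one T12 culture and 845 in the other. For RPL31, RPL30, RPL41 and RPL7L1 the adjusted p was 0.977 each (edgeR rank aggregation).

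RPL41, the smallest ribosomal protein, had 2 sgRNAs. The first had 0 counts at T0 in both arms, and the second 415 at parental T0 and 1 at NMYC T0. In parental cells the pair went from 415 counts at T0 to 1 count over both T12 libraries together, a T0 level 978 times that of T12, with an exact counting interval of 175 to 38733. The second sgRNA was already at 0 in both parental T6 libraries, where the first had 0 and 13 counts. In NMYC cells the pair went from 1 count to 319, all of them in T12 replicate 2, a ratio of 141 with a counting interval of 25.1 to 5585. NMYC T12 replicate 1 held 0 counts for both sgRNAs.

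**Figure D2:**
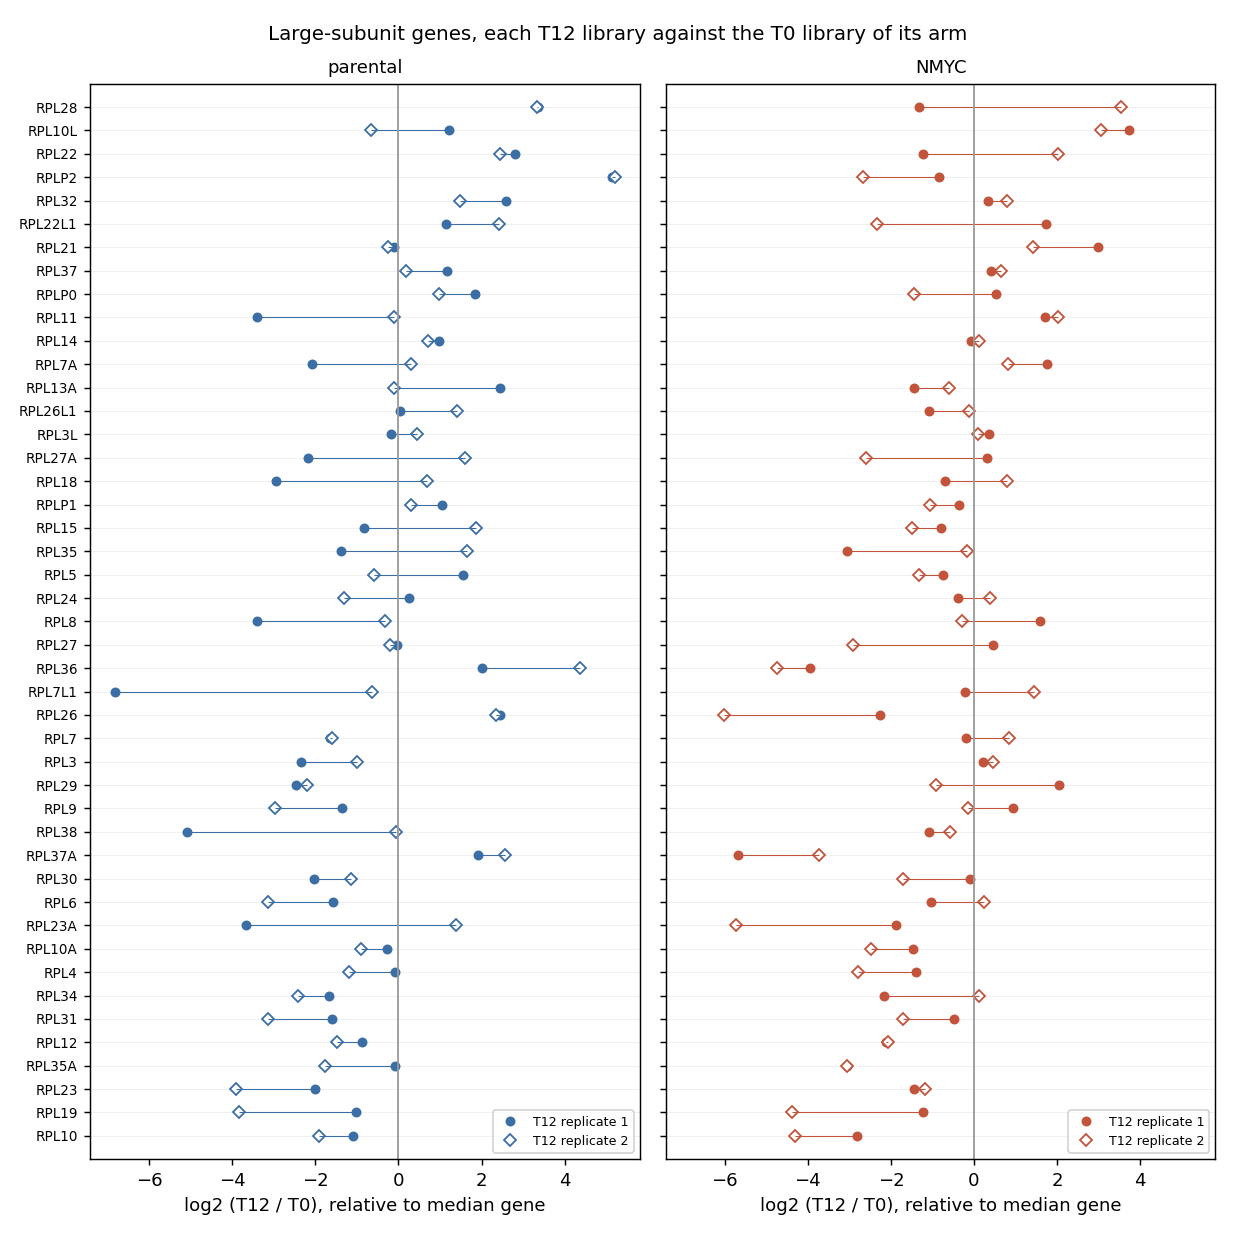
Each row is 1 of the tested large-subunit genes reported here, each mark the log2 of its summed CPM in 1 T12 library over the T0 library of its arm, relative to the median gene (line at 0), with parental cells on the left and NMYC cells on the right. Genes are ordered by the mean over both arms, RPL41 is left out because libraries at 0 have no log2 value, and the NMYC marks of RPL35A coincide; RPL10, RPL19 and RPL23, at the bottom, lie below -1 in all 4 libraries.

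On the other side in parental cells, RPL26, a protein at the exit tunnel, was at 11.8 CPM at T0, 9.71 and 60.5 at T6, then 53.6 and 50.3 at T12 (T12 mean 51.9 ± 2.39, SD, n = 2; log2 2.24). RPL28 was at 8.06 CPM at T0, 30.6 and 37.0 at T6, then 69.3 and 68.3 at T12 (T12 mean 68.8 ± 0.752; log2 3.19). RPL36 was at 6.72 CPM at T0, 39.8 and 69.4 at T6, then 22.6 and 117 at T12 (T12 mean 69.9 ± 66.9; log2 3.48). Both T12 libraries were above T0 for all 3 genes, and each has an adjusted p of 0.983 (edgeR rank aggregation). These T0 levels rest on few counts: the RPL26 sgRNAs had 1, 0 and 157 counts there, those of RPL28 had 1, 2 and 105, and the kept ones of RPL36 had 21 and 69. RPL18, ranked next by its sgRNAs, had a summed log2 value of -0.37, with 5.36 and 66.5 CPM at T12 against 49.5 at T0, and its sign turned with the parental T12 library used.

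Across the members, the change from T0 to T12 followed the T0 level. The Spearman correlation between the T0 level and the parental log2 value was -0.695 over 47 members and -0.774 over all genes, and in NMYC cells it was -0.781 and -0.699. Both quantities share the T0 library, so a library with a high count there gives a low value, and how far this sets the order of the members was not tested. Member T0 levels spanned 1.64 to 284 CPM in parental cells, with a median of 63.2.

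In NMYC cells more members stood below the median gene. The median member was at -0.68 with 29 of 47 below, and the T12 libraries taken singly had medians of -0.75 and -0.61. Relative to the median gene, a level at least 2-fold below T0 in both T12 libraries was again found for 11 of 47 members, 23.4%, against 14.1% of all tested genes: RPL4, RPL10, RPL10A, RPL12, RPL19, RPL23, RPL23A, RPL26, RPL35A, RPL36 and RPL37A. A level at least 2-fold above T0 in both, by the same measure, was found for 3, RPL10L, RPL11 and RPL21, which is 6.38% against 15.1% of all genes. All kept sgRNAs lay below the median sgRNA for 10 members (21.3%, against 14.5% of all genes), among them RPL5, RPL12, RPL15, RPL23, RPL27, RPL31, RPL35A, RPL36 and RPLP2, and above it for 4 (8.51%, against 14.6%).

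The NMYC test called no member either. Rank aggregation on edgeR p-values gave 0 lower and 0 higher after adjustment, where 0% of all genes passed in each direction. At an unadjusted p under 0.05 there were 3 lower (6.38%, against 5.02% of all genes) and 2 higher (4.26%, against 5.07%), and the score on DESeq2 p-values called 0. Of single member sgRNAs edgeR called 0 lower, against 0.0132% of all sgRNAs, and 0 higher, against 0%. Without adjustment (p under 0.05) it had 10 lower (7.41%, against 5.31% of all sgRNAs) and 1 higher (0.741%, against 1.48%), a lower-heavy split in both. DESeq2 called 5 lower and 3 higher after adjustment (3.70% and 2.22%, against 2.69% and 2.00% of all sgRNAs). Fitted to NMYC libraries only, edgeR called 2 of the 135 member sgRNAs, both lower, where it called 0.537% of all sgRNAs lower: the first of RPL36 (adjusted p = 0.00172) and the third of RPL10A (adjusted p = 0.0108). The same pair was called without parental T12 replicate 1 (edgeR adjusted p = 0.0221 and 0.0287, with 0.145% of all sgRNAs called lower) and without parental T12 replicate 2 (0.0254 and 0.0266, with 0.149%).

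RPL36 had the smallest p for depletion in NMYC cells. It was at 287 CPM at T0, 62.2 and 11.7 at T6, then 15.6 and 10.7 at T12, a mean of 13.2 ± 3.41 (SD, n = 2), with all 4 later libraries below T0. Its log2 value was -4.47 (edgeR rank aggregation, adjusted p = 0.593). The first sgRNA went from 3544 counts at T0 to 9 and 89 at T12, while the second went from 149 to 229 and 60. The remaining RPL36 sgRNA, left out for its low mean, had 73 and 59 counts at parental T0 and in one parental T6 culture and 0 in all 4 T12 libraries.

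RPL10A, the protein of the L1 stalk, which guides spent tRNA out of the ribosome, was at 137 CPM at NMYC T0, 53.7 and 50.5 at T6, then 41.1 and 24.6 at T12 (T12 mean 32.8 ± 11.7, SD, n = 2; log2 -2.09, edgeR rank aggregation adjusted p = 0.933). The sgRNAs went separate ways. The third went from 1530 counts to 9 and 11 and the second from 62 to 36 and 3, whereas the first went from 169 to 583 and 327. RPL12, at the base of the stalk that recruits elongation factors, was at 44.9 CPM at T0 and at 8.63 and 10.7 at T12 (log2 -2.24), and all 3 of its sgRNAs were below T0 in both T12 libraries. RPL35A was at 68.8 CPM at T0, 29.2 and 19.2 at T6, then 6.93 and 8.29 at T12 (T12 mean 7.61 ± 0.962; log2 -3.21). RPL26 was at 84.4 CPM at T0, 44.7 and 43.8 at T6, then 14.7 and 1.30 at T12 (log2 -3.43). RPL12, RPL26 and RPL35A had an adjusted p of 0.974 each (edgeR rank aggregation), and the T12 libraries of each lay below its T0 library.

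At the upper end in NMYC cells, RPL11, of the 5S particle, was at 25.5 CPM at NMYC T0, 23.5 and 25.8 at T6, then 70.3 and 104 at T12 (T12 mean 87.2 ± 23.9, SD, n = 2; log2 1.74, edgeR rank aggregation adjusted p = 0.959). RPL10L, the testis paralog of RPL10, was at 8.54 CPM at T0, 32.5 and 31.2 at T6, then 95.4 and 71.0 at T12 (log2 3.26, adjusted p = 0.967 by the same test). RPL24, ranked next, had a summed log2 value of -0.062, with 13.1 and 26.5 CPM at T12 against 20.3 at T0.

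**Figure D3:**
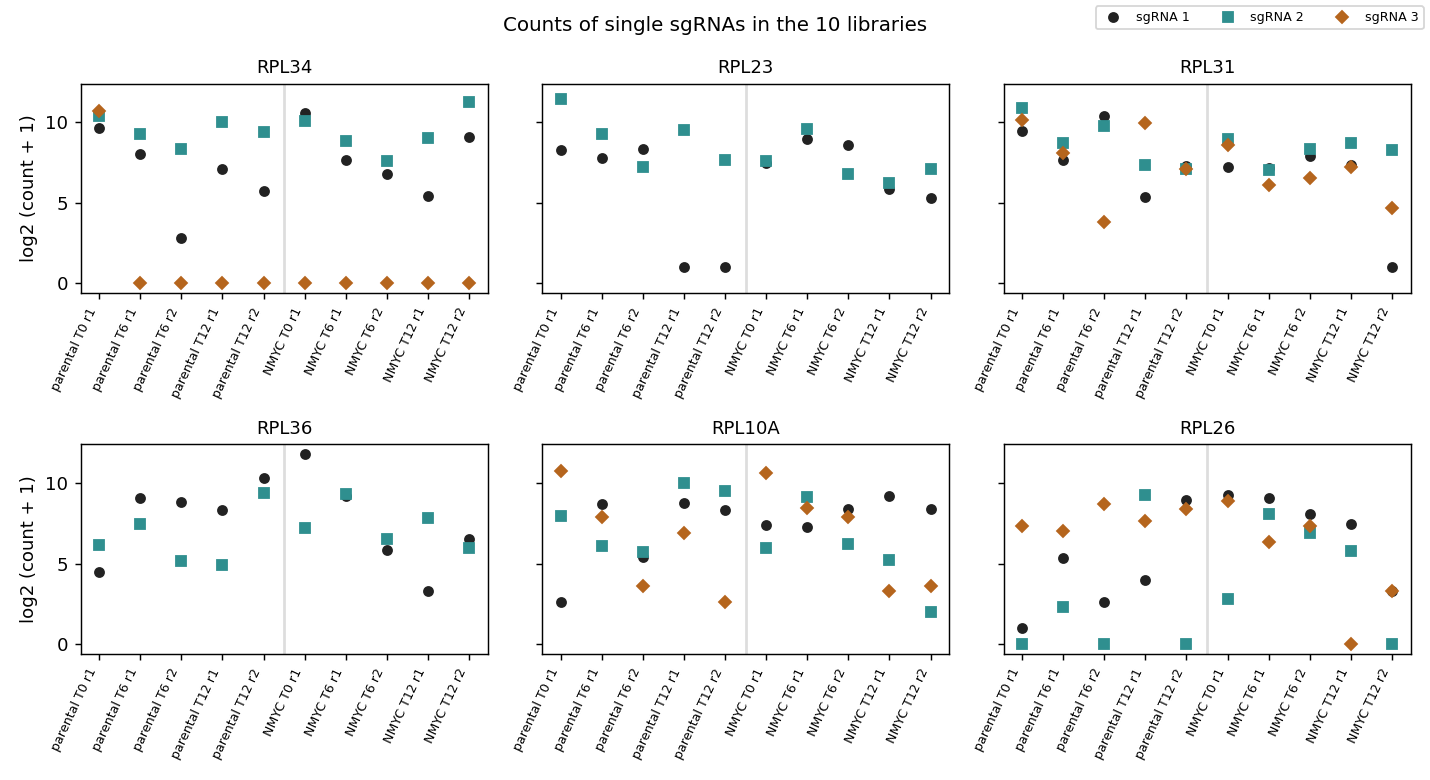
Counts of the kept sgRNAs of 6 large-subunit genes in the 10 libraries, as log2 of the count plus 1; marks are single sgRNAs in table order and a grey line parts the arms. RPL34 sgRNA 3 lies at 0 in every library but parental T0, and RPL23 sgRNA 1 has 1 count in each parental T12 library.

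The difference between the arms is the comparison the design asks for. RPL36 had the smallest p for depletion in it as well, at a log2 value of -7.84 (NMYC minus parental of T12 against T0, edgeR rank aggregation, adjusted p = 0.683). The arms began from different levels, 6.72 CPM in parental and 287 in NMYC cells, and at T12 they stood at 69.9 ± 66.9 and 13.2 ± 3.41 (SD, n = 2). RPL26 followed at -5.55 (adjusted p = 0.988 by the same test), from 11.8 to 51.9 ± 2.39 CPM in parental and from 84.4 to 8.01 ± 9.49 in NMYC cells. RPL10A was at -1.27, with T12 levels of 83.3 ± 25.5 CPM in parental and 32.8 ± 11.7 in NMYC cells, after T0 levels of 146 and 137. The T0 levels of RPL10A in the arms were close, whereas those of RPL36 and RPL26 were far apart.

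RPLP2, a stalk protein, had a difference of -6.61, from 1.64 CPM at T0 to 48.4 and 51.2 at T12 in parental cells and from 79.9 to 37.4 and 12.6 in NMYC cells. RPL37A had -6.48, from 9.56 to 30.2 and 47.3 CPM in parental and from 132 to 2.16 and 9.95 in NMYC cells. RPL5 had -1.78, with 37.4 CPM at T0 and 92.8 and 20.9 at T12 in parental cells against 45.8, then 22.8 and 18.2, in NMYC cells. Each of RPL10A, RPLP2, RPL5 and RPL37A had an adjusted p of 0.992 (edgeR rank aggregation), and the parental T12 values of RPL5 lay on both sides of T0. On the upper side RPL7L1 had 2.65, RPL29 3.57 and RPL8, a protein near the peptidyl transferase centre, 2.14, each with an adjusted p of 0.993 by the same test. RPL29 went from 51.1 CPM to 7.69 and 9.38 in parental cells and from 15.9 to 55.4 and 8.44 in NMYC cells, where the replicates again lay on both sides of T0. RPL8 went from 167 CPM to 13.3 and 112 in parental and from 21.3 to 53.3 and 17.5 in NMYC cells.

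No member passed the test of the difference. Rank aggregation on edgeR p-values called 0 lower and 0 higher, with 0% of all genes called in each direction. At an unadjusted p under 0.05 there were 3 lower (RPL10A, RPL26 and RPL36, 6.38% against 4.78% of all genes) and 1 higher (RPL41, 2.13% against 4.85%), and the score on DESeq2 p-values called 0. Of single member sgRNAs edgeR called 0 lower and 0 higher, with 0% of all sgRNAs called either way. Without adjustment it had 9 lower (6.67%, against 6.17% of all sgRNAs) and 3 higher (2.22%, against 3.78%) at p under 0.05. DESeq2 called 11 lower and 4 higher after adjustment (8.15% and 2.96%, against 5.81% and 3.48% of all sgRNAs). For 11 members (23.4%, against 14.5% of all genes) every kept sgRNA was below the median sgRNA of the difference, and for 7 (14.9%, against 14.8%) above it. The median member difference was -0.53, with 27 of 47 below the median gene. Restricted to sgRNAs that reached 30 counts in each T0 library it turned to 0.051, and was -0.22 without NMYC T12 replicate 2. Without parental T12 replicate 1, edgeR called 1 member sgRNA lower in the difference, the first of RPL36 (adjusted p = 0.0344), where 0.00943% of all sgRNAs were called lower.

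The order of members differed between the arms, as did that of all genes. Over 47 members the parental and NMYC log2 values had a Spearman correlation of -0.127 (0.00604 over all genes), with 14 members below the median gene in both arms (29.8%, against 25.2% of all genes) and 7 above in both (14.9%, against 25.2%). Levels at least 2-fold below T0 relative to the median gene in all 4 T12 libraries were found for RPL10, RPL19 and RPL23, 6.38% of members against 2.06% of all genes. Levels at least 2-fold above T0 in all 4, by the same measure, were found for 0 members, against 2.97% of all genes. RPL10, which joins the subunit late and lies near the peptidyl transferase centre, had 138 CPM in the parental T0 library, 14.7 and 9.61 at T6, then 54.7 and 30.6 at T12. In NMYC cells it was at 99.7 CPM at T0, 20.7 and 3.11 at T6, then 11.8 and 5.05 at T12, so all 8 later libraries lay below the T0 library of their arm. RPL19 was at 125 CPM at parental T0 and at 52.0 and 7.39 at T12, and at 96.8 at NMYC T0 and 34.6 and 4.62 at T12. Neither gene passed the test in either arm. In CPM, not set against the median gene, the T12 libraries of 7 tested members (RPL11, RPL21, RPL26, RPL36, RPL37A, RPLP1 and RPLP2) lay on opposite sides of T0 in the arms. This is 14.9% against 24.4% of all tested genes, and none of these members passed the test of the difference.

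**Figure D4:**
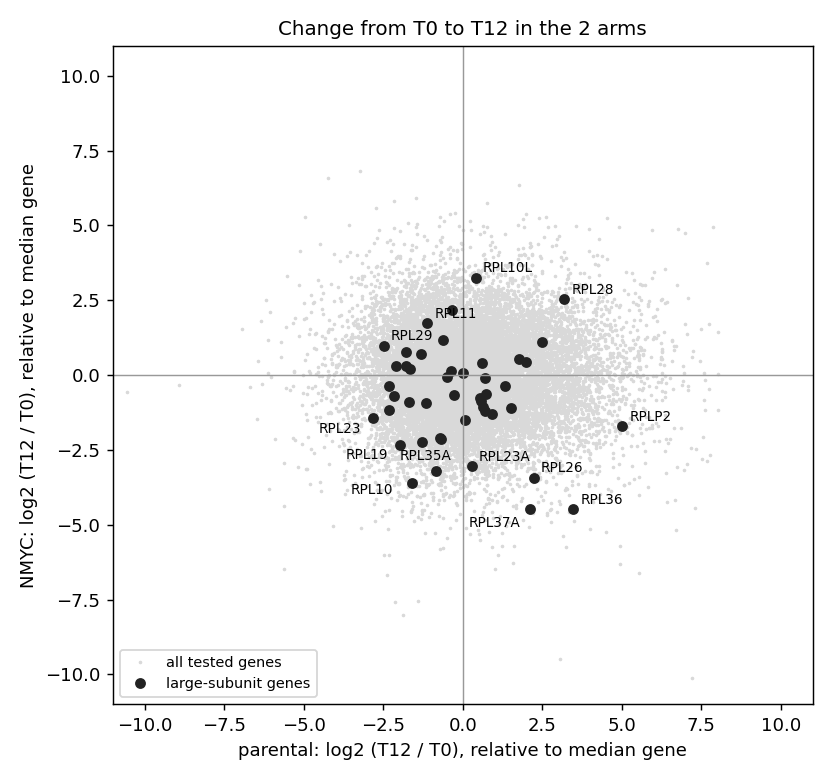
Log2 of T12 over T0, relative to the median gene, in parental cells (horizontal axis) and NMYC cells (vertical axis), with large-subunit genes as black points and all tested genes in grey; RPL41 is left out because its value rests on 1 count in each arm. Of the 47 members, 14 lie below 0 in both arms and 7 above 0 in both, and RPL36, RPL26, RPL37A and RPLP2 lie at the lower right.

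Taken by role, the stalk and exit tunnel genes had lower median changes from T0 to T12 in NMYC than in parental cells. The P stalk, which recruits elongation factors (RPLP0, RPLP1, RPLP2 and RPL12), had a median of 0.95 in parental cells with 1 of 4 below the median gene, and of -1.28 in NMYC cells with 4 of 4 below. The single T12 libraries gave 1.45 and 0.65 in parental cells and -0.60 (3 of 4 below) and -1.75 in NMYC cells. RPLP0 was at 1.32 and -0.38, RPLP1 at 0.57 and -0.86, RPLP2 at 5.02 and -1.70 and RPL12 at -1.30 and -2.24 in parental and NMYC cells. The parental RPLP2 value rests on 7 and 15 counts of its kept sgRNAs at T0. Of 8 tested exit tunnel genes 4 lay below the median gene in parental cells (median -0.20) and 7 in NMYC cells (median -1.66), and RPL22 was the one above. This contrast rests on parental T12 replicate 2: the exit tunnel median was -1.20 in parental T12 replicate 1, with 6 of 8 below, and 0.67 in replicate 2, while the NMYC libraries had -1.32 and -2.25. Compared directly at T12, without T0, the exit tunnel median of NMYC relative to parental cells was -0.49, no lower than the -0.52 of all members. The stalk median was -1.53 there, with 3 of 4 below the median gene and RPLP1 above at 0.62. Differences that the arms had at T0 remain in these direct values. The role medians rest on few genes that share libraries, and none of these genes passed the test of the difference.

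The 5S particle proteins had opposite values, RPL5 at 0.70 in parental and -1.19 in NMYC cells and RPL11 at -1.11 and 1.74. Genes mutated in Diamond-Blackfan anaemia, an inherited failure of red cell production, had a median of -0.27 in parental cells with 5 of 9 below the median gene and of -1.17 in NMYC cells with 7 of 9 below. By library the parental medians were -0.83 and -0.098 and the NMYC medians -0.75 and -1.50, so parental T12 replicate 1 lay below NMYC T12 replicate 1. The tissue-restricted or divergent paralogs RPL3L, RPL7L1, RPL10L, RPL22L1 and RPL26L1 had medians of 0.41 and 0.54, with 1 of 5 below in each arm. Their library medians were 0.043 and 0.44 in parental and 0.36 and 0.11 in NMYC cells, with 2 of 5 below in each library. RPL3L, the muscle paralog of RPL3, was at 61.8 CPM at parental T0 and at 45.8 and 70.3 at T12, and at 77.1 at NMYC T0 and 82.6 and 83.0 at T12, on both sides of T0 in parental cells. Without the paralogs 42 members remained, and their T12 library medians were -0.85 and -0.16 in parental and -0.82 and -0.92 in NMYC cells.

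At T6 the members were already spread. In parental cells 2 of 47 were lower at an unadjusted p under 0.05 (RPL34 and RPL41, 4.26% against 5.01% of all genes) and 2 higher (RPL11 and RPL36, against 4.88%), with 0 after adjustment (edgeR rank aggregation). In NMYC cells 4 were lower (RPL10, RPL15, RPL34 and RPL36, 8.51% against 5.12%) and 2 higher (RPL21 and RPL24, against 4.96%), with 0 after adjustment by the same test. Between T6 and T12, which does not use T0, 7 members ranked lower in NMYC cells (RPL4, RPL10A, RPL19, RPL22, RPL23, RPL26 and RPL35A, 14.9% against 4.96% of all genes) and 2 higher (4.26% against 4.7%). RPL22 ranked there by its sgRNAs, while its summed log2 value was 1.24, with 10.4 and 7.25 CPM at T6 and 4.32 and 48.7 at T12, on both sides of T6. In parental cells 4 were lower (RPL3, RPL11, RPL23 and RPL31, 8.51% against 4.9%) and 2 higher (4.26% against 4.89%). After adjustment the count was 0 in all of these (edgeR rank aggregation). Member medians from T6 to T12 were 0.10 in parental and -0.30 in NMYC cells.

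Compared directly at T12, without any T0 library, the members of NMYC cells had a median of -0.52 relative to parental cells, with 30 of 47 below the median gene. Such a comparison keeps any difference that the arms had at T0. There the median member was at 63.2 CPM in parental and 45.9 in NMYC cells, against 53.1 and 43.7 over all genes. At an unadjusted p under 0.05, 5 of the 47 members were lower, against 5.11% of all genes, and 2 of the 47 higher, against 4.89%, with 0 after adjustment (edgeR rank aggregation). Olfactory receptors had a median of 0.051 in this comparison and small-subunit genes of -0.090.

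Single sgRNAs were also counted as lost when they had at least 30 counts at T0 and at most 3 in both T12 libraries, a rule chosen after their values were seen. In parental cells 6 of 92 member sgRNAs met it, 6.52% (95% Clopper-Pearson interval 2.43% to 13.7%), against 1.87% of all sgRNAs, 1 each against RPL7, RPL23, RPL29, RPL34, RPL36 and RPL41. In NMYC cells 1 of 101 met it, against RPL5 (0.990%, interval 0.0251% to 5.39%), below the 2.59% of all sgRNAs. The parental share was not particular to the members: 60S assembly sgRNAs had 6.25% (7 of 112) and small-subunit sgRNAs 5.08% (3 of 59). In NMYC cells these sets had 6.78% (8 of 118) and 2.94% (2 of 68). For RPL36 in parental cells the lost sgRNA is the one left out of the test, while the summed level of the kept ones was higher in both T12 libraries than at T0.

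The other genes of the ribosome, from lists, gave no called gene in the T12 against T0 comparisons. At an unadjusted p under 0.05, each arm had 4 of 31 small-subunit genes on the lower side and 0 on the higher, 12.9% as against 12.8% of the members in parental and 6.38% in NMYC cells, with medians of -0.54 and -0.55. RPS19, mutated in Diamond-Blackfan anaemia, had a log2 value of -0.69 in parental and -3.32 in NMYC cells. Of 55 genes for assembly of the 60S subunit, parental cells had 4 lower and 3 higher by the same cutoff and NMYC cells 8 lower and 3 higher, with medians of -0.57 and -0.14. TMA16, an assembly factor, was at -6.35 in parental and 1.80 in NMYC cells, and NIP7 at -2.41 and -3.55. In the difference the medians were 0.27 for the small subunit and 0.21 for the assembly genes, where the members had -0.53. Olfactory receptors had medians of 0.081 in parental and 0.013 in NMYC cells.

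Ribosomal protein genes have many processed pseudogenes, and an sgRNA that matches one cuts there as well. The RefSeq gene names (GRCh38.p14), in which all 52 members were found by symbol, list 1295 pseudogenes named after them, a median of 16.5 per member and 137 for RPL21, and none for 5 members. The number of pseudogenes had a Spearman correlation of -0.218 with the parental and -0.159 with the NMYC log2 value over 47 members, given as a description. The count table holds sgRNA names and no sequences, so which sgRNAs match a pseudogene was not tested.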

How the data were processed

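Genomic DNA of 22Rv1 cells was read by amplicon sequencing of its sgRNA cassettes. The authors deposited raw counts of each sgRNA in 10 columns, and 0 columns were left unmapped. The submitters' processing notes name MAGeCK, while version, trimming and sgRNA reference are not stated there. Per the labels the library holds 65000 sgRNAs, of which the table lists 55849.

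Of these, 53040 with a mean of at least 20 counts entered edgeR 4.0.16 (R 4.3.3, TMM, quasi-likelihood, 6 group means, 4 residual degrees of freedom, common dispersion 1.11). All libraries entered the fit, so the lone T0 libraries are taken to have the spread of the duplicated groups. Genes were scored by robust rank aggregation of signed sgRNA p-values (alpha at a one-sided p of 0.25, exact null), adjusted by Benjamini-Hochberg per direction over 18197 genes with at least 2 kept sgRNAs, at 0.05. Gene levels are summed CPM, and log2 values are their fold changes with the median gene set to 0, without a pseudocount. Ranks weigh sgRNAs alike, so a gene's rank and its summed value can differ in sign. PCR reads carry no molecular identifiers here, so intervals from counts cover counting error only.

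In each of the 3 main contrasts the 6 members with the smallest p for depletion and the 4 with the smallest p for enrichment were named with their values, and others by role or where they were counted, except that some genes are not reported here by name. The members and lists were chosen with earlier results of these data known. Alternatives were DESeq2 1.42.0, summed counts, other size factors and filters, a replicate block, single arms, a shared T0 baseline and leaving out single libraries. The pipeline was tested on simulated data.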

Additional observations from a re-analysis of the deposited data

Results flagged for a closer look

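RPL13 had 1 kept sgRNA and so no gene test, and its libraries moved in opposite directions in the arms. In parental cells it went from 5.90 CPM at T0 to 1.10 and 0.745 at T12, and in NMYC cells from 5.43 to 13.8 and 18.6, a T12 mean of 16.2 ± 3.40 (SD, n = 2). The difference was not tested.

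Among the member sgRNAs left out for a low mean, 11 of 14 exceeded 3 counts, the limit that a count of 0 allows, in at least 1 library. The highest count of such an sgRNA in any library was 78 for RPLP2, 73 for RPL36, 47 for RPL36A, 41 for RPL39, 33 for RPL7, 23 for RPL23, 21 each for RPL13 and RPL39L, 18 for RPL24 and 4 for RPL22, with 1 not reported here. Another 3 had at most 3 counts in every library.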

How the results depend on the processing

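The count of member genes called was 0 in each of the 3 main comparisons under every alternative run, DESeq2, summed counts and the replicate block included. The main fit called 0% of all genes, and the share of all genes called under the alternatives is not given. In the main fit a count of 0 therefore does not set the members apart from other genes. Under the alternatives that comparison is not made here. Single sgRNAs were less stable. DESeq2 called 24 member sgRNAs in parental cells, 8 in NMYC cells and 15 in the difference, and left 7, 7 and 0 without an adjusted p; the NMYC libraries alone gave 2. With 1 library left out the count ran from 0 to 2 in NMYC cells and from 0 to 1 in the difference, and was 0 in parental cells.

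The median member log2 in parental cells was -0.81 for sgRNAs reaching 30 counts in each T0 library and -0.60 by the median sgRNA. In NMYC cells it was -0.38 without a filter, -0.44 against both T0 libraries and -0.80 without the paralogs, the last chosen after seeing the data. In the difference it was -0.70 with non-targeting size factors, -0.29 without a filter and 0.051 for sgRNAs reaching 30 counts in each T0 library. With 1 library left out it ran from -0.33 to -0.11 in parental, from -0.75 to -0.61 in NMYC cells and from -0.69 to -0.22 in the difference.

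Signs turned for RPL18 in parental cells (0.14 against both T0 libraries, and from -2.95 to 0.68 with 1 library left out, highest without parental T12 replicate 1), RPL36 in parental cells (-0.85 against both T0 libraries), RPL24 in NMYC cells (from -0.37 to 0.39 with 1 library left out, highest without NMYC T12 replicate 1), RPL41 in NMYC cells (-0.17 against both T0 libraries) and RPL5 in the difference (0.13 for sgRNAs reaching 30 counts in each T0 library). The cause was not tested. RPL41 had no finite value under 4 alternatives, which are left out. Of the named gene values, 463 under alternatives kept their direction and side of the threshold.

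Culture numbers did not pair the libraries: deviations of same-numbered T6 and T12 libraries correlated at 0.0687 in parental and -0.00874 in NMYC cells. With the replicate block the counts of called member genes and sgRNAs were 0 in all 3 comparisons, as without it.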
